A study of Mus musculus with 25 samples.

Results

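The genes described here are 36 genes of mitosis and the spindle, measured by RNA sequencing in 25 melanomas grown in mice. They were listed by name as known parts of the mitotic machinery, with earlier results of these data known. All 36 were found, each as a single row, among the 55450 genes of the count table, and all 36 passed the filter on low counts that left 18031 genes for testing.

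The tumours grew from B2905, also called M4, a mouse melanoma cell line, in C57BL/6 mice. Of 40 implanted mice, 30 were given an antibody against CTLA-4, an inhibitory receptor of T cells, and 5 were given IgG2b, an antibody of the same isotype. Each was given at 10 mg/kg, 2 doses a week for 2 weeks, starting when tumours averaged 75 mm3. A further 5 mice, left untreated, are not analysed here. The data hold 20 anti-CTLA-4 tumours, not all 30 of that arm, and outcome labels divide them. These labels were set 10 to 11 days after dosing ended and give 6 non-responders that grew, 6 stable tumours and 8 responders that shrank. The other 5 tumours, called controls, had IgG2b. All 4 groups share 1 cell line and 1 mouse strain, and each library holds the RNA of a whole tumour, melanoma cells and host cells together. Tumours are named below by a letter for the group (C, N, S and R) and a number that follows the order of their records, so S3 and R3 are unrelated animals.

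Mitosis is driven by the kinase Cdk1 bound to cyclin B. Polo-like and Aurora kinases then build the spindle and attach chromosomes to it, the spindle checkpoint holds the anaphase-promoting complex (APC/C) inactive until every kinetochore is attached, and separase then releases the sister chromatids before the cell is cut apart. Most of these genes are transcribed mainly late in the cell cycle, under the MuvB complex with B-Myb and FOXM1, and are repressed in resting cells. In a tumour their transcript level is widely read as a mark of how many cells are dividing, whichever cell type those cells belong to.

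Total counts ran from 8.76 to 34.3 M per tumour, and the smallest count of any member in any tumour was 11, for Ccnb2 in R1. Protein-coding genes took 82.9 to 89.2% of the counts in controls, non-responders and stable tumours together. In responders that share ran from 23.8 to 87.0%, and 7 of 8 responders were at or under 74.3%, so this share moves with the responder label in every comparison with responders, and its part in them was not tested beyond the values given below. The summed level of 8 melanocyte markers (Mlana, Dct, Tyr, Tyrp1, Pmel, Sox10, Mitf and Slc45a2) was 10680 to 17510 counts per M counts (CPM) in controls. It was 726 to 14060 CPM in non-responders, but at most 505 in stable tumours and 725 in responders, and none of the 8 was at 0 in all tumours.

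The promoters of late cell cycle genes carry a known pair of elements, the cell cycle genes homology region (CHR) and the CCAAT box, bound by MuvB complexes and by NF-Y. RefSeq windows (build GRCm38.p6) from 250 bases before to 50 after the transcription start were matched by symbol for 30 of the 36 genes. No window was matched for Aurkb, Ccna2, Dlgap5, Foxm1, Kif20a and Tpx2. The 120 bases before the RefSeq start are printed for 9 genes, 5′ to 3′ on the gene's strand. Every match to TTTGAA or TTTAAA (CHR), CCAAT, and TTCCCGCC or TTGGCGCC (E2F), on either strand, is in capitals. The first 7 were chosen for a CHR match in this stretch, from several of the roles described below. All 7 also hold at least 1 CCAAT match there, in differing order. Espl1 also holds both elements and showed the smallest difference between responders and non-responders, 1.19-fold. Nusap1 has none of them in this stretch and was 2.76-fold lower in responders, where the largest difference of any member was 4.08-fold. Espl1 and Nusap1 are single examples and do not stand for the 30 windows. A relation between these elements and the differences between groups was not tested.
Ccnb1: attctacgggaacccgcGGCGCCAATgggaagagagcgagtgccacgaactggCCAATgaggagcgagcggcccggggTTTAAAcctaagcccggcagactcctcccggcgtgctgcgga
Cdk1: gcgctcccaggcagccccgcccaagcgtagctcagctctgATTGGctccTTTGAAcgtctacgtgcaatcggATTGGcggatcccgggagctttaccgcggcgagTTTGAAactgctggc
Plk1: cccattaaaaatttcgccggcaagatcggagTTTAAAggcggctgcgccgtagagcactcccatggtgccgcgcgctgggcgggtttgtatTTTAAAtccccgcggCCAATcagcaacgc
Cdc20: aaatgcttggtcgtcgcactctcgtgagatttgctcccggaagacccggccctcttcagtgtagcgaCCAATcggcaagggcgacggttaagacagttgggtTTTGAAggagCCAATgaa
Kif11: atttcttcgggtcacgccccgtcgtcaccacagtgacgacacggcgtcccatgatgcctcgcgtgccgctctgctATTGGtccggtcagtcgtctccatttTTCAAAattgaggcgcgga
Cenpa: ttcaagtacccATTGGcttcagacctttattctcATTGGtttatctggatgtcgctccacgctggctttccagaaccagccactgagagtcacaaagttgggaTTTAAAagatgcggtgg
Top2a: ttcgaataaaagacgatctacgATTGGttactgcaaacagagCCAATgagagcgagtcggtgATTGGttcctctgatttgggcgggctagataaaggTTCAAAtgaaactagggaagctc
Espl1: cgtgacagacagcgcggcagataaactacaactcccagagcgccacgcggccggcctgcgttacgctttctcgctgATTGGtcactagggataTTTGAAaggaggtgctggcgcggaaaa
Nusap1: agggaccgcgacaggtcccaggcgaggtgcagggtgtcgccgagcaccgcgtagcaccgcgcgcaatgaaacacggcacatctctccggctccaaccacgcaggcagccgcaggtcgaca

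In Ccnb1 (chr13:100786487-100786606, minus strand) 2 CCAAT boxes precede 1 CHR match, and the capitals of the first box run together with an E2F match. Cdk1 (chr10:69352913-69353032, minus strand) holds 2 CHR and 2 CCAAT matches, and Plk1 (chr7:122159315-122159434, plus strand) holds 2 CHR matches followed by 1 CCAAT box. The stretch of Cdc20 lies at chr4:118437344-118437463 (minus strand), that of Kif11 at chr19:37376262-37376381 (plus strand), and that of Cenpa at chr5:30666766-30666885 (plus strand). Top2a (chr11:99024190-99024309, minus strand) has 3 CCAAT boxes before its CHR match. Espl1 (chr15:102296173-102296292, plus strand) has 1 of each, and Nusap1 (chr2:119618178-119618297, plus strand) has no match. The gene starts of the GENCODE annotation differ from the RefSeq starts in places. By GENCODE, the stretches of Ccnb1 and Cenpa lie mostly inside the gene, and those of Cdk1, Cdc20 and Espl1 partly.

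Over the whole 300-base windows, a CHR match lay in 25 of the 30 promoters (83.3%), against 27.8% of 27025 windows of all genes. TTTGAA was found in 22 of 30 (73.3%, against 18.1%) and TTTAAA, which reads the same on both strands, in 9 (30.0%, against 13.2%). Within 100 bases before to 50 after the start, 23 of 30 had a CHR match (76.7%, against 12.9%). CCAAT was in 22 (73.3%, against 37.9%), and 14 held 2 or more (46.7%, against 12.2%). Both elements were present in 21 promoters (70.0%, against 10.9%). E2F matches were in 2 (6.67%, against 3.02%). The 5 windows without a CHR match were those of Bub1, Melk, Ncaph, Nuf2 and Nusap1. A match describes letters in a window and is not a measured binding site.

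Averaged over the 36 genes, levels were highest in controls, next in non-responders, and lower in stable tumours and responders. Each gene's level is its CPM scaled by TMM, a correction for library composition, and the mean over the 36 genes was taken on the log2 scale. That mean was 5.94, 5.42, 5.46, 5.95 and 5.91 log2 CPM in the 5 controls. In the 6 non-responders it ran from 4.76 to 5.98 with a median of 5.26, in the 6 stable tumours from 3.48 to 4.77 with a median of 4.34, and in the 8 responders from 3.62 to 4.48 with a median of 4.09. Every responder lay below every non-responder and every control. The stable tumours lay below every control and overlapped the non-responders only through S5, at 4.77 against 4.76 for N6. Group means were 5.74 ± 0.27 for controls (SD, n = 5), 5.31 ± 0.50 for non-responders (n = 6), 4.29 ± 0.44 for stable tumours (n = 6) and 4.06 ± 0.27 for responders (n = 8). Summed over the 36 genes, the controls had 2740 ± 473 CPM, the non-responders 2180 ± 747, the stable tumours 1104 ± 285 and the responders 947 ± 175. In bulk tumours, fewer dividing cells and less mitotic RNA per dividing cell cannot be told apart.

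**Figure D1:**
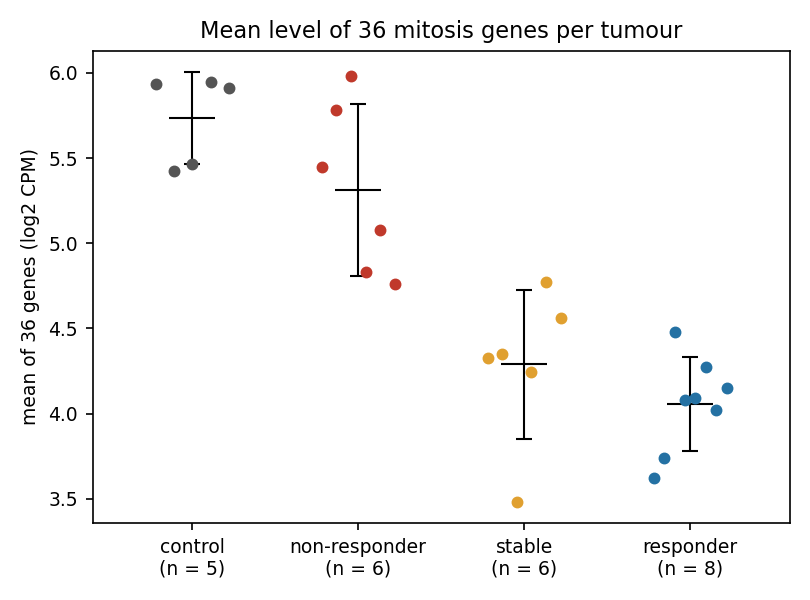
Mean log2 CPM of the 36 genes in each tumour (points, 1 per tumour) by group, with the group mean (long line) and SD (bars). All 8 responders lie between 3.62 and 4.48, below the lowest non-responder at 4.76, while the 6 non-responders spread from 4.76 to 5.98.

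Levels of different genes can be compared per gene length, as RPKM (reads per kilobase per M reads) from the authors' table. Top2a, the topoisomerase that untangles sister chromatids, led in all 4 groups, at 35.8 ± 5.35 RPKM among controls (SD, n = 5), 30.6 ± 7.89 among non-responders (n = 6), 17.3 ± 3.76 among stable tumours (n = 6) and 13.8 ± 2.80 among responders (n = 8). Ccna2 (cyclin A) came second in controls at 32.4 ± 6.29 RPKM and Mki67 second in responders at 12.8 ± 3.30, and these neighbours overlapped within their SDs. At the low end, Ttk had 3.02 ± 0.35 RPKM in controls and 1.33 ± 0.36 in responders, below every other member's mean in each group.

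**Figure D2:**
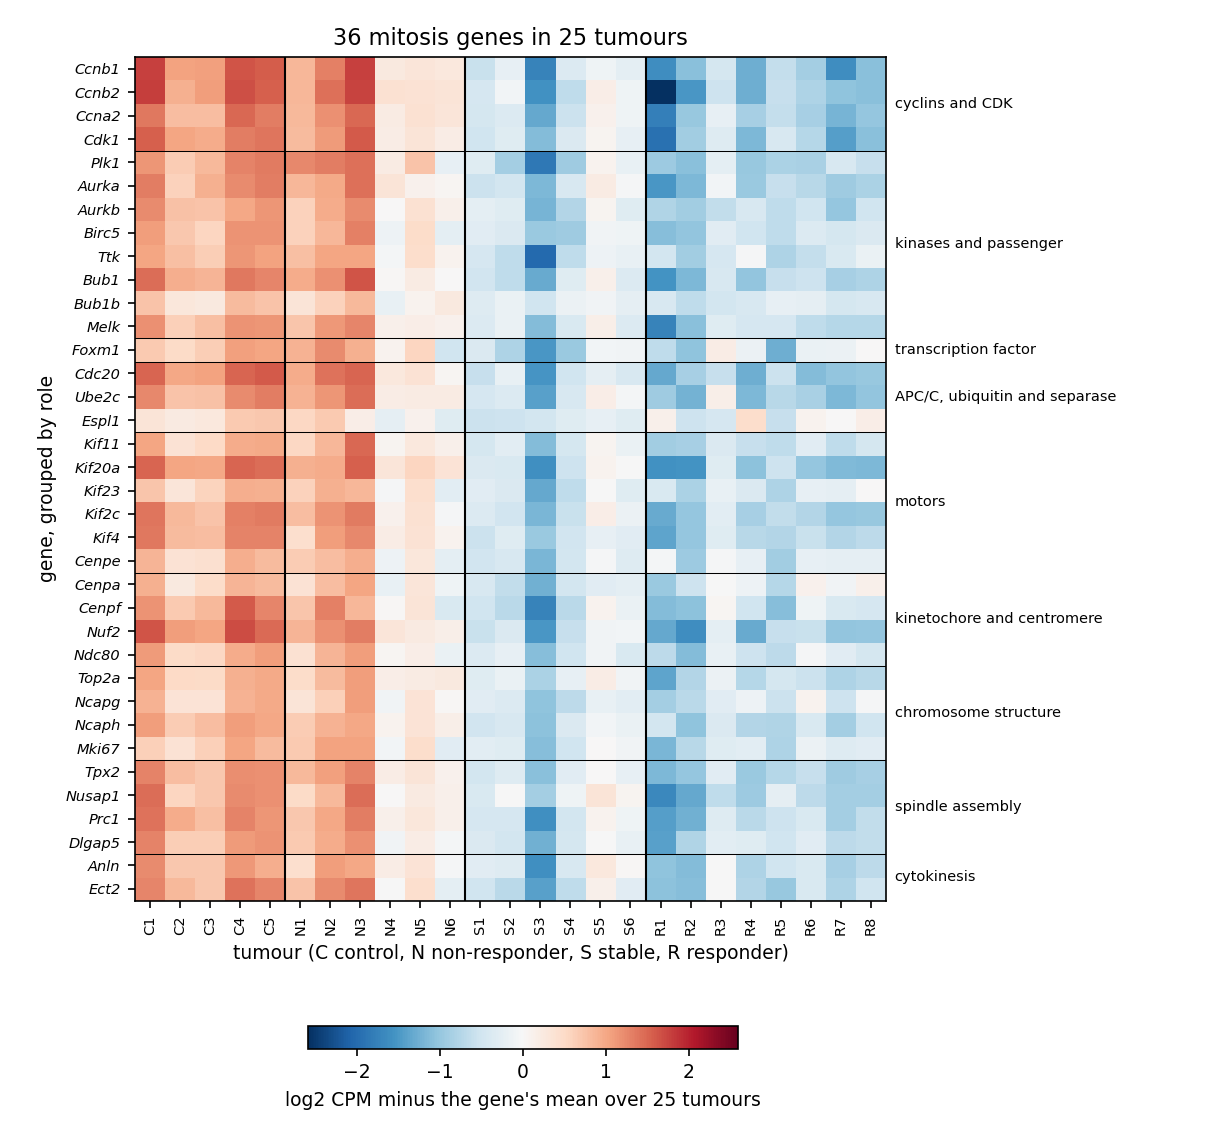
Log2 CPM of each of the 36 genes (rows, grouped by role) in each of the 25 tumours (columns), minus the gene's own mean over all tumours; red is above that mean and blue below. Controls and non-responders N1 to N3 are red throughout, S3 and R1 are the darkest blue columns, and Espl1 is the row with the least contrast.

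Responders against non-responders asks how tumours that shrank differed from tumours that grew under the same antibody. Of the 36 genes, 35 were lower in responders at an adjusted p under 0.05 (edgeR quasi-likelihood test, Benjamini-Hochberg over 18031 genes), with none called in the other direction. Over all tested genes 23.8% were called lower and 48.9% called in either direction. The median log2 fold change of the members was -1.33, against 0.05 over all tested genes. For 24 of the 36, every responder lay below every non-responder, which 2.94% of all tested genes did. p-values here set the difference between groups against the spread between tumours within all 4 groups. Stable tumours against non-responders gave 36 of 36 lower, where 7.86% of all tested genes were called lower and 14.9% either way, with a median of -1.06 against -0.02. There, 16 of 36 did not overlap, against 2.94% of tested genes, the same number of genes overall (530) by count. Both comparisons use the same 6 non-responders and are not independent of each other.

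Among the 9 roles, the cyclins and Cdk1 differed most between responders and non-responders, with means over the 4 genes of 3.78 ± 0.49 (SD, n = 8) and 5.60 ± 0.58 log2 CPM (n = 6). Ccnb1, cyclin B, which activates Cdk1 at entry into mitosis (ENSMUSG00000041431.16, chr13:100778650-100786570 in GRCm38, GENCODE M21), had 103, 62.6, 63.0, 93.4 and 90.2 CPM in the 5 controls. It ran from 35.8 to 103 (median 46.2) CPM in non-responders, from 9.09 to 28.0 (median 24.4) in stable tumours and from 9.76 to 21.9 (median 14.2) in responders. All stable tumours and all responders lay below all non-responders and all controls, while non-responders and controls overlapped. Ccnb1 was 3.83-fold lower in responders than in non-responders (log2 -1.94, SE 0.26, adjusted p = 1.92e-05) and 2.60-fold lower in stable tumours (log2 -1.38, SE 0.28, adjusted p = 0.00392). Ccnb2, the second cyclin B, had 53.1, 28.9, 32.6, 48.7 and 44.7 CPM in controls. Its non-responders spanned 19.2 to 52.0 (median 24.0) CPM, its stable tumours 5.07 to 17.2 (median 12.7) and its responders 2.46 to 10.5 (median 7.29), again with no overlap with non-responders. This was the largest difference of any member between responders and non-responders, 4.08-fold (log2 -2.03, SE 0.28, adjusted p = 3.11e-05). Cdk1, the kinase itself (ENSMUSG00000019942.13, chr10:69335146-69352938), had 86.7, 59.5, 57.0, 74.3 and 76.8 CPM in controls. It spanned 33.4 to 88.6 (median 44.7) CPM in non-responders, 13.4 to 30.8 (median 23.2) in stable tumours and 7.59 to 23.2 (median 14.7) in responders. The order of groups was the same, with no overlap of stable tumours or responders with non-responders. Cdk1 fell by 1.72 on the log2 scale in responders (SE 0.24, adjusted p = 2.72e-05) and by 1.18 in stable tumours (SE 0.26, adjusted p = 0.00505). Ccna2, cyclin A, needed for replication and early mitosis, differed by -1.70 and -1.21 in the same comparisons (adjusted p = 2.42e-05 and 0.00411). Counts of Ccnb1 and Ccnb2 could be split with their annotated pseudogenes Ccnb1-ps and Ccnb2-ps, and those of Ccna2 with Exosc9, whose exons share bases on the opposite strand.

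**Figure D3:**
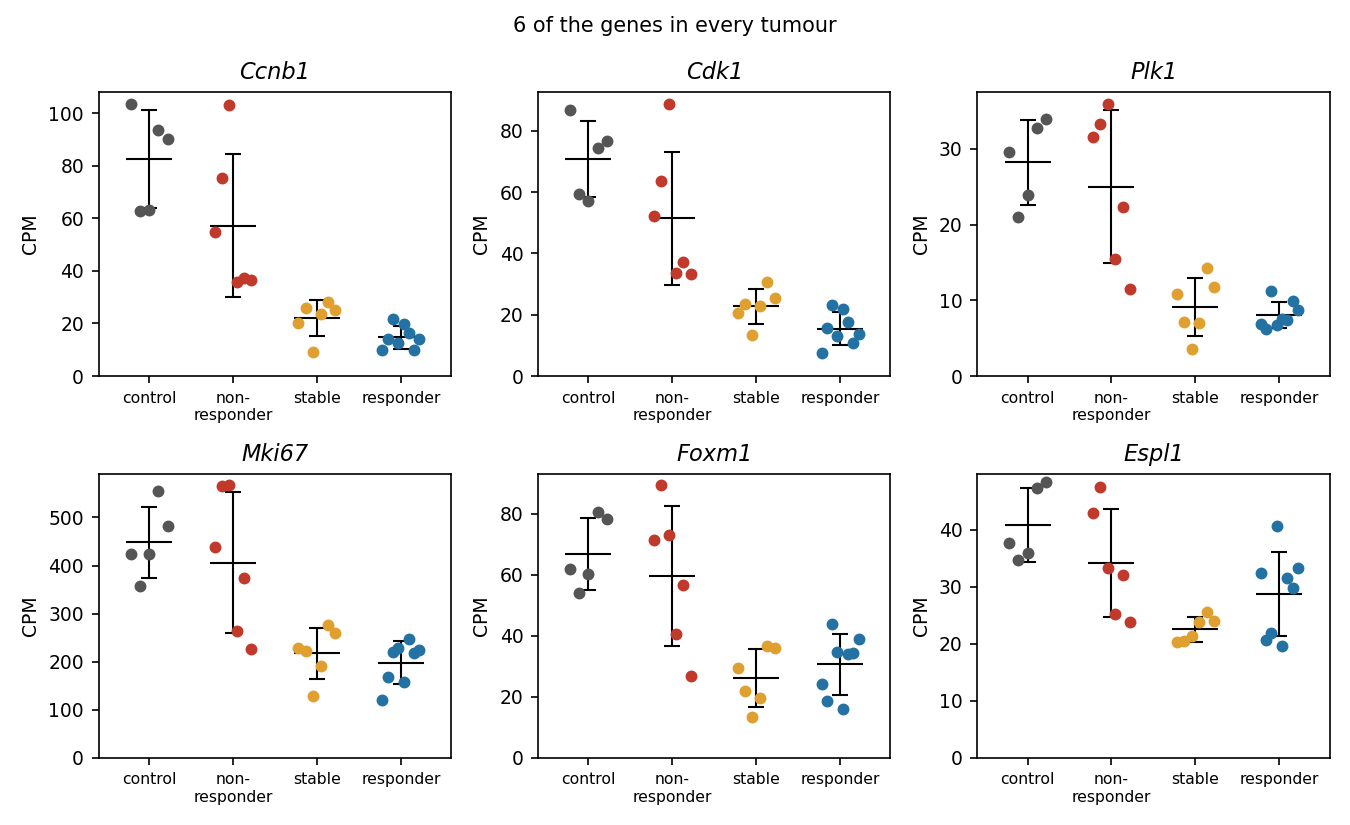
CPM of 6 of the genes in every tumour (points), with group means (long lines) and SD (bars), on linear axes that start at 0. Ccnb1 and Cdk1 in stable tumours and responders lie below every non-responder, Mki67 and Foxm1 overlap, and Espl1 in responders spreads from 19.6 to 40.6 CPM, across most of the non-responder range.

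All 8 genes of the mitotic kinase group (Plk1, Aurka, Aurkb, Birc5, Ttk, Bub1, Bub1b and Melk) were lower in both comparisons. Plk1, the polo-like kinase that acts at centrosomes, kinetochores and the cleavage furrow (ENSMUSG00000030867.7, chr7:122159439-122169873), had 29.5, 20.9, 23.9, 32.7 and 33.9 CPM in controls. Its range was 11.5 to 35.9 (median 26.9) CPM in non-responders, 3.62 to 14.2 (median 8.97) in stable tumours and 6.23 to 11.2 (median 7.44) in responders. Responders lay just below the lowest non-responder, and stable tumours overlapped it. The Plk1 difference was 3.08-fold in responders (log2 -1.62, SE 0.26, adjusted p = 8.77e-05). In stable tumours it was 2.75-fold (log2 -1.46, SE 0.28, adjusted p = 0.00315), the largest of any member between stable tumours and non-responders. Aurkb, the Aurora kinase of the chromosomal passenger complex, had 35.1, 25.4, 24.9, 29.8 and 32.9 CPM in controls. It spanned 14.9 to 34.9 (median 21.2) CPM in non-responders, 6.41 to 15.6 (median 12.0) in stable tumours and 7.41 to 11.2 (median 9.47) in responders, where responders did not overlap non-responders and stable tumours did. Its log2 fold change was -1.29 (SE 0.18, adjusted p = 3.64e-05) in responders and -1.03 (SE 0.20, adjusted p = 0.00317) in stable tumours. Birc5 (survivin), which holds that complex at the centromere, had 30.1, 23.1, 20.7, 31.8 and 31.8 CPM in controls. It ran over 11.8 to 35.1 (median 20.4) CPM in non-responders, 7.19 to 13.1 (median 11.2) in stable tumours and 6.47 to 11.5 (median 9.99) in responders. The pattern of overlap was that of Aurkb, and Birc5 was 2.21-fold lower in responders (log2 -1.15, SE 0.21, adjusted p = 0.000266) and 2.00-fold lower in stable tumours (adjusted p = 0.00633).

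Bub1b (BubR1), a checkpoint protein that inhibits the APC/C, changed least among the kinase group. It had 77.6, 56.9, 54.9, 82.0 and 76.9 CPM in controls, 40.7 to 83.1 (median 57.0) in non-responders, 32.3 to 43.7 (median 40.3) in stable tumours and 29.5 to 39.8 (median 34.6) in responders. Responders were all under the non-responders by a narrow margin, and the log2 fold changes were -0.77 in responders (SE 0.13, adjusted p = 0.000138) and -0.60 in stable tumours (SE 0.14, adjusted p = 0.00677). Its partner Bub1 changed more, with log2 -1.63 (SE 0.24) and -1.25 (SE 0.26). Aurka, the Aurora kinase of the spindle poles, had log2 -1.50 and -1.06, Melk, a kinase of dividing cells, -1.37 and -0.99, and Ttk, the kinase that starts the checkpoint signal, -1.08 and -1.19. Of these 8 genes only Ttk overlapped between responders and non-responders, and only Ttk did not overlap between stable tumours and non-responders.

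Foxm1, the transcription factor that drives many of these genes in G2 (ENSMUSG00000001517.14, chr6:128362967-128376146), overlapped between groups more than the cyclins. It had 61.9, 53.9, 60.2, 80.7 and 78.3 CPM in controls, 26.7 to 89.4 (median 64.1) in non-responders, 13.5 to 36.7 (median 25.7) in stable tumours and 16.0 to 43.8 (median 34.2) in responders. The non-responder N6, at 26.7 CPM, lay below 5 of the 8 responders. Its log2 fold change was -0.96 in responders (SE 0.26, adjusted p = 0.00439) and -1.19 in stable tumours (SE 0.28, adjusted p = 0.00752). When each library's protein-coding share entered the model, 29 of the 35 calls between responders and non-responders passed the threshold. Foxm1, at log2 -0.98 with adjusted p = 0.0832, was 1 of the 6 lost, with Cenpa, Cenpf, Ncapg, Mki67 and Dlgap5. Foxm1 shares exon bases on its own strand with Tex52 and Gm44596, so reads there cannot be told apart.

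Among the genes of the APC/C and separase, Cdc20 and Ube2c fell and Espl1 stood apart. Ube2c, the ubiquitin-conjugating enzyme of the APC/C, had 36.3, 25.5, 25.9, 35.9 and 38.5 CPM in controls. It ran from 17.4 to 41.8 (median 23.2) CPM in non-responders, from 5.69 to 17.2 (median 11.6) in stable tumours and from 6.51 to 16.9 (median 7.72) in responders, without overlap of stable tumours or responders with non-responders, though S5 came within 1 CPM of N4. The differences were log2 -1.57 (SE 0.25, adjusted p = 8.04e-05) and -1.12 (SE 0.27, adjusted p = 0.00761). Cdc20, the activator that the checkpoint holds back, was 3.52-fold lower in responders (log2 -1.82, SE 0.22, adjusted p = 9.66e-06) and 2.65-fold lower in stable tumours. These were the smallest adjusted p-values of any member in both comparisons. Espl1, separase, the protease that cuts cohesin at anaphase (ENSMUSG00000058290.4, chr15:102296266-102324357), had 37.7, 34.8, 35.9, 47.3 and 48.4 CPM in controls. Its levels were 23.9 to 47.5 (median 32.7) CPM in non-responders, 20.3 to 25.5 (median 22.6) in stable tumours and 19.6 to 40.6 (median 30.7) in responders. Responders spread over most of the non-responder range: R2, R3 and R5 lay between 19.6 and 21.9 CPM and the other 5 between 29.8 and 40.6. R2, R3 and R5 are also the responders with the highest protein-coding shares (72.7, 74.3 and 87.0%, against 23.8 to 70.3% in the other 5). The difference between responders and non-responders did not pass the test (log2 -0.25, SE 0.17, 95% interval -0.59 to 0.09, adjusted p = 0.207). With the protein-coding share in the model it was log2 -0.53 (adjusted p = 0.101). Stable tumours were lower than non-responders (log2 -0.60, SE 0.18, adjusted p = 0.0269), a call lost without N1, N2, S2 or S3, with adjusted p = 0.0896 without N2.

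All 6 spindle motors were lower in both comparisons. Kif11 (Eg5), the motor that pushes the spindle poles apart (ENSMUSG00000012443.4, chr19:37376403-37421859), had 108, 68.8, 76.0, 102 and 104 CPM in controls. It ran from 55.8 to 148 (median 70.0) CPM in non-responders, from 24.1 to 55.7 (median 41.2) in stable tumours and from 28.3 to 43.3 (median 34.2) in responders. Responders and stable tumours lay below all non-responders, S5 and N4 being 55.7 and 55.8 CPM. Kif11 was 2.35-fold lower in responders (log2 -1.23, SE 0.20, adjusted p = 8.77e-05) and 2.01-fold lower in stable tumours (log2 -1.01, SE 0.21, adjusted p = 0.00449). The largest motor difference was that of Kif20a, a kinesin of the central spindle, at log2 -1.82 (SE 0.23) and -1.22 (SE 0.25), counting exons shared with Cdc23 on the opposite strand. Kif2c, a microtubule depolymerase at centromeres, had -1.55 and -1.11, and Kif4, a chromosome-bound kinesin, -1.39 and -1.09. Kif4 shares exon bases with Pdzd11 and has an annotated pseudogene, Kif4-ps, so its counts are less certain. Kif23, of the centralspindlin complex, and Cenpe, the kinetochore motor, changed least, with -0.84 and -0.77 in responders. These were the motors whose responders overlapped the non-responders.

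At the kinetochore, 4 of 4 genes were lower in both comparisons. Cenpa, the histone variant that marks the centromere (ENSMUSG00000029177.9, chr5:30666777-30674830), had 51.4, 32.4, 37.7, 50.4 and 48.2 CPM in controls, 23.9 to 55.2 (median 34.4) in non-responders, 11.4 to 22.8 (median 20.1) in stable tumours and 13.8 to 29.9 (median 25.3) in responders. Stable tumours lay below all non-responders, while responders overlapped them. Its log2 fold change was -0.66 in responders (SE 0.20, adjusted p = 0.0104), smaller than that of every other called member, and -0.96 in stable tumours (SE 0.22, adjusted p = 0.00673). Nuf2, of the Ndc80 complex that grips microtubules, had 56.3, 38.5, 36.9, 58.6 and 50.1 CPM in controls. It spanned 20.1 to 46.0 (median 28.0) CPM in non-responders, 6.35 to 17.4 (median 13.0) in stable tumours and 5.89 to 15.1 (median 9.00) in responders, with no overlap of the latter groups with non-responders. Nuf2 differed by log2 -1.66 (SE 0.24, adjusted p = 3.64e-05) and -1.23 (SE 0.25, adjusted p = 0.00411). Ndc80, its partner in the same complex, differed less, by -0.94 and -0.89, and Cenpf, a large kinetochore protein, by -1.10 and -1.09.

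Genes of chromosome structure were lower 4 of 4 in both comparisons. Mki67 (Ki-67), the protein that coats mitotic chromosomes and the usual histological mark of proliferation (ENSMUSG00000031004.8, chr7:135689784-135716361), had 424, 358, 424, 556 and 482 CPM in controls. It ran from 226 to 569 (median 407) CPM in non-responders, from 128 to 277 (median 226) in stable tumours and from 120.1 to 248 (median 219.9) in responders. The highest stable tumours and responders overlapped N6, the lowest non-responder. Mki67 was 2.05-fold lower in responders (log2 -1.04, SE 0.21, adjusted p = 0.000473) and 1.87-fold lower in stable tumours (log2 -0.90, SE 0.22, adjusted p = 0.00986). Top2a had 333, 236, 231, 312 and 323 CPM in controls, 186 to 346 (median 212) in non-responders, 93.0 to 188 (median 144) in stable tumours and 64.1 to 147 (median 98.8) in responders. Its responders lay below all non-responders and its stable tumours did not, with log2 fold changes of -1.20 (SE 0.17, adjusted p = 3.89e-05) and -0.74 (SE 0.19, adjusted p = 0.0108). The condensin subunits Ncapg and Ncaph, which compact chromosomes, differed by -0.78 and -1.21 in responders and by -0.89 and -0.98 in stable tumours.

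Spindle assembly and cytokinesis genes followed, 6 of 6 lower in both comparisons. Nusap1, which binds and stabilises microtubules near chromosomes (ENSMUSG00000027306.15, chr2:119618298-119651244), had 56.6, 30.5, 33.8, 48.2 and 46.9 CPM in controls. Its range was 20.8 to 56.5 (median 26.7) CPM in non-responders, 11.2 to 26.1 (median 19.9) in stable tumours and 6.47 to 17.7 (median 11.2) in responders. Responders lay below all non-responders, while stable tumours overlapped both groups. In responders the difference was log2 -1.46 (SE 0.23, adjusted p = 8.3e-05). In stable tumours it was log2 -0.73 (SE 0.25, adjusted p = 0.0454), a call lost when any 1 of 15 tumours was left out. Without N3, the non-responder with the highest level, it was -0.49 (adjusted p = 0.177). Tpx2, which activates Aurora A on the spindle, differed by -1.50 and -1.06, Prc1, the cross-linker of the spindle midzone, by -1.39 and -1.08, and Dlgap5 (HURP), a stabiliser of kinetochore fibres, by -1.14 and -0.99. Anln (anillin), the scaffold of the contractile ring (ENSMUSG00000036777.8, chr9:22332012-22389188), had 184, 129, 128, 173 and 152 CPM in controls, 77.9 to 168 (median 105) in non-responders, 26.5 to 96.4 (median 63.6) in stable tumours and 36.6 to 78.7 (median 47.8) in responders. R3 was the single responder above the lowest non-responder, N6. The Anln differences were log2 -1.20 (SE 0.22, adjusted p = 0.000281) and -0.85 (SE 0.24, adjusted p = 0.0195), the second lost without N2 (adjusted p = 0.0638) or N3 (adjusted p = 0.0599) and with only the groups compared (adjusted p = 0.0559). Ect2, the exchange factor that activates RhoA at the cleavage site, differed by -1.36 and -1.21.

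**Figure D4:**
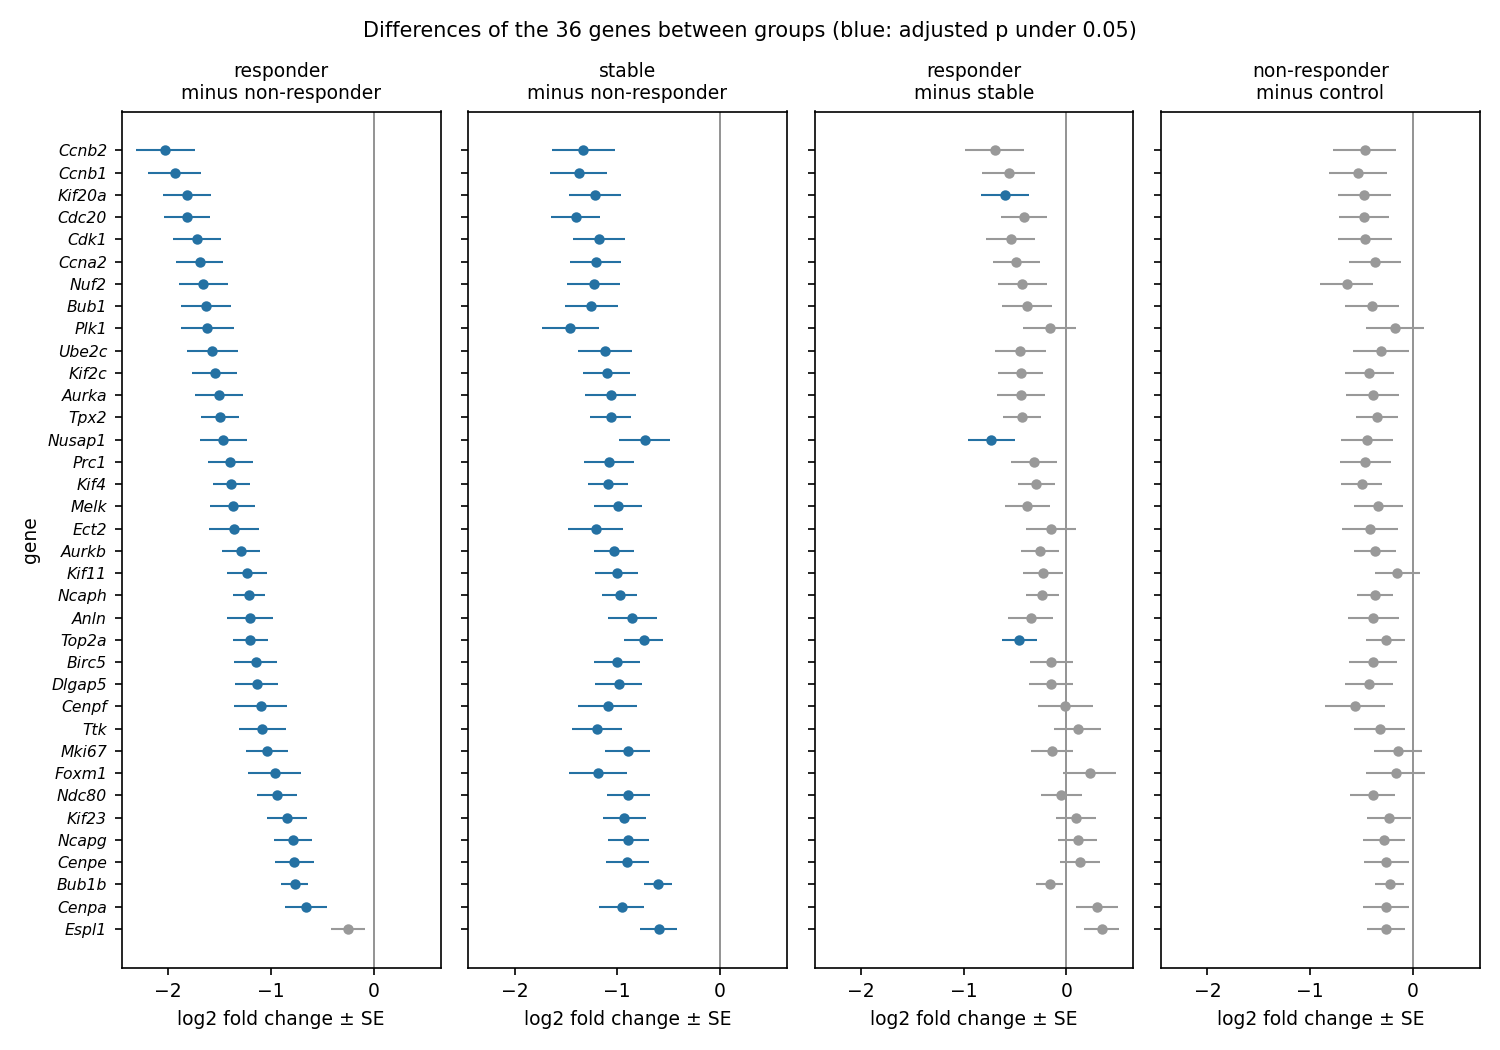
Log2 fold change of each of the 36 genes (points) with its SE (bars) in 4 comparisons, ordered by the responder minus non-responder value, with calls at an adjusted p under 0.05 in blue. All points but Espl1 in the first panel are blue and left of 0 in the first and second panels, 3 are blue between responders and stable tumours, and none is blue between non-responders and controls.

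Between responders and stable tumours few of these genes passed the test. Of the 36, 3 were called, all lower in responders, where 17.8% of all tested genes were called lower and 38.2% in either direction, and no member was without overlap (0.288% of tested genes). The median log2 fold change of the members was -0.28, against 0.01 over all tested genes, with 29 members below 0 and 7 above. The called genes were Nusap1 (log2 -0.73, SE 0.23, adjusted p = 0.0176), Top2a (log2 -0.46, SE 0.17, adjusted p = 0.0406) and Kif20a (log2 -0.60, SE 0.23, adjusted p = 0.0452). No member was called when the protein-coding share entered the model, without R1 and R4 (the libraries under 60% protein-coding), or on log2(RPKM + 1). On that scale the mean over the members differed by -0.05, against -0.23 on log2 CPM. The count was 0 without S5, 11 without S3, 10 without R3 and 6 without N3 or R5. It was 1 without S2, S4, S6, R1, R2, R4, R6, R7 or R8. For Mki67 the 95% interval of the difference was -0.56 to 0.29 on the log2 scale, for Plk1 -0.70 to 0.38, and for Ccnb1 -1.09 to -0.03 (adjusted p = 0.0864). Espl1 had the highest value, log2 0.34 (95% interval -0.002 to 0.69, adjusted p = 0.106), and was called higher without R5 (adjusted p = 0.0417) and with a stricter filter on low counts (adjusted p = 0.0474).

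Against the IgG2b controls, all 36 genes were lower in responders, where 28.9% of tested genes were called lower and 65% either way. All 36 were lower in stable tumours, where 19.6% were called lower and 41.8% either way. These comparisons share their 5 controls with each other and with the next. For 35 of 36 genes every responder lay below every control (15.2% of tested genes), Espl1 being the exception, and for 36 of 36 every stable tumour did (17.2%). The median of the members was -1.69 in responders, against 0.16 over all tested genes, and -1.41 in stable tumours, against 0.03. Responder values ran from -2.50 for Ccnb2 (SE 0.30, adjusted p = 3.82e-07), a 5.64-fold difference, to -0.51 for Espl1 (SE 0.17, adjusted p = 0.0126). The Espl1 call was lost on log2(RPKM + 1), with adjusted p = 0.113, and with a stricter filter on low counts, with adjusted p = 0.0872, and the Cenpa call was lost when the protein-coding share entered the model (adjusted p = 0.0518). Stable values ran from -1.91 for Ccnb1 (SE 0.29, adjusted p = 1.44e-05) to -0.83 for Bub1b (SE 0.15, adjusted p = 6.23e-05).

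No gene of the 36 passed the test between non-responders and controls. All 36 log2 fold changes were below 0, with a median of -0.38 against 0.04 over all tested genes, but none was called (edgeR), where 3.29% of tested genes were called lower and 13.9% either way, and none was without overlap (1.41%). At an unadjusted p under 0.05 there were 3, Kif4, Nuf2 and Ncaph, and DESeq2 called none. Nuf2 was the lowest, at -0.64 (95% interval -1.18 to -0.11, adjusted p = 0.102), and Mki67 the highest, at -0.14 (95% interval -0.62 to 0.33, adjusted p = 0.71). Without N3, 6 members were called lower, Nuf2 among them with adjusted p = 0.0314, and without N2 there was 1. With the 3 outcome groups averaged at equal weight, the anti-CTLA-4 tumours were lower than controls in 36 of 36 genes, where 23.4% of tested genes were lower and 51.1% called either way, with no gene free of overlap (0.932%). The values ran from -1.64 for Ccnb1 (SE 0.22, adjusted p = 2.43e-06) to -0.54 for Espl1 (SE 0.15, adjusted p = 0.00399).

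The genes moved together from tumour to tumour within a group. N3 was the highest non-responder for 30 of the 36 genes and S5 the highest stable tumour for 33, while S3 was the lowest stable tumour for 35. In responders R3 was the highest for 24 and R1 the lowest for 21. After subtraction of the group means, the 630 pairs of members had a median correlation of 0.83 over the 25 tumours, from 0.05 to 0.98. Their mean was 0.79, against 0.004 over all pairs of tested genes, a mean in which positive and negative correlations cancel. Points share library, depth and scaling. Tpx2 followed the mean of the other 35 most closely (r = 0.97). Espl1 followed it least (r = 0.40), and Bub1b was next (r = 0.77). Across the 36 genes, which are not independent replicates, longer genes had smaller differences between responders and non-responders, with r = 0.60 between log2 exonic length and log2 fold change, against -0.14 over all tested genes. The shortest, Ccnb2, has 1531 exonic bases, and Espl1 has 8749. Between stable tumours and non-responders r was 0.50, between responders and stable tumours 0.49, and between non-responders and controls 0.13. Against controls it was 0.53 for responders and 0.43 for stable tumours.

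The wider cell cycle was read from 160 other genes in 8 lists, all of them tested, chosen with earlier results of these data known. Between responders and non-responders 117 of the 160 were lower and 7 higher, where 23.8% of all tested genes were lower and 25.2% higher. Between stable tumours and non-responders 89 were lower and 6 higher, against 7.86% and 7.08% of all tested genes. Of 36 further kinetochore and checkpoint genes, 27 were lower in responders and none higher, led by Cenpm, a subunit of the inner kinetochore (log2 -1.60, SE 0.25). Condensin and cohesin genes were lower in 12 of 17, led by the condensin subunit Smc2 (log2 -1.19, SE 0.18), and kinases and phosphatases of mitotic entry in 11 of 14, led by Cks2, the small partner of Cdk1 (log2 -1.87, SE 0.30). For the APC/C it was 15 of 17, led by Ube2s, its chain-extending enzyme (log2 -0.94, SE 0.14). Other motor, spindle and cytokinesis genes were lower in 20 of 22, led by Hmmr, a spindle microtubule protein (log2 -1.57, SE 0.22), with Numa1, which anchors spindle poles, the only one higher (log2 0.34, SE 0.12, adjusted p = 0.0193). DNA replication genes were lower in 21 of 22, led by Mcm5 of the replicative helicase (log2 -1.70, SE 0.20). Between responders and stable tumours 24 of the 160 were lower and 13 higher, where 17.8% of all tested genes were lower and 20.5% higher. Between non-responders and controls 2 were lower and 2 higher, where the shares over all tested genes were 3.29% and 10.6%. Neither pair of counts lies above these shares.

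The last 2 of the 8 lists hold regulators of these promoters and of the cell cycle. Of 19 genes of the DREAM and MuvB complexes and the E2F family, 8 were lower and 3 higher in responders than in non-responders, beside 23.8% and 25.2% of all tested genes, led by Tfdp2, a partner of E2F factors (log2 -0.74, SE 0.14). Rb1, E2f2 and E2f4 were the higher ones. Mybl2 (B-Myb), which turns MuvB into an activator, had 3.87 to 9.16 CPM in responders (median 8.43), 3.92 to 5.94 in stable tumours (median 5.22), 5.62 to 13.6 in non-responders (median 10.8) and 9.62 to 12.3 in controls (median 11.0). It was lower in stable tumours than in non-responders (log2 -0.96, SE 0.21, adjusted p = 0.00528) and higher in responders than in stable tumours (log2 0.54, SE 0.20, adjusted p = 0.0367). Unlike the members, Mybl2 was not run with the protein-coding share in the model or under the other alternatives. Between responders and non-responders Mybl2 was not called (log2 -0.42, SE 0.20, adjusted p = 0.0742). Of 13 cell cycle inhibitors, 3 were higher in responders than in non-responders and 3 lower, which is close to the shares over all tested genes (25.2% and 23.8%). Cdkn1a (p21), an inhibitor of cyclin-dependent kinases, was among the higher (log2 0.82, SE 0.28, adjusted p = 0.0179), with 63.3 to 139 CPM in responders and 29.8 to 103 in non-responders, which overlap. Cdkn2c (p18), an inhibitor of Cdk4 and Cdk6, was among the lower (log2 -1.37, SE 0.19), as it was in stable tumours (log2 -1.03, SE 0.21, adjusted p = 0.00368).

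**Figure D5:**
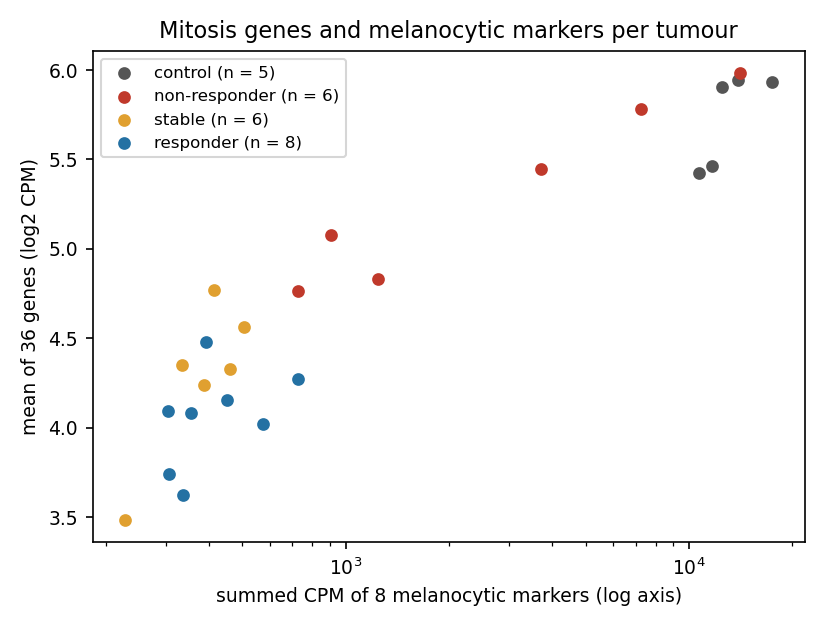
Mean log2 CPM of the 36 genes (vertical axis) against the summed CPM of 8 melanocytic markers (horizontal log axis), 1 point per tumour, coloured by group. Controls and N1 to N3 lie at the upper right, N4 to N6 between, and stable tumours and responders at the lower left, where the melanocytic sum is at most 725 CPM.

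Melanocytic markers moved with the mitosis genes. All 8 were lower in responders and in stable tumours than in non-responders, with medians of log2 -4.60 and -4.85. Over all tested genes 23.8% and 7.86% were called lower. The markers differed widely in size of change. Sox10 was at log2 -0.52 and -0.71, Mitf at -1.39 and -1.24, and Slc45a2, which fell most, at -6.25 and -6.70. The sum of the 8 markers ran from 726 to 14060 CPM in non-responders, from 228 to 505 in stable tumours and from 304 to 725 in responders. None of the 8 was at 0 in all tumours. Within the non-responders, N1, N2 and N3 had sums of 3698, 7265 and 14060 CPM and member means of 5.45, 5.78 and 5.98 log2 CPM. N4, N5 and N6 had 1239, 908 and 726 CPM and member means of 4.83, 5.08 and 4.76. Between responders and stable tumours none of the 8 melanocytic markers was called. The part of melanoma cell content in the differences of the mitosis genes was not tested.

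Host cells moved too. Summed T cell markers spanned 7.07 to 26.1 CPM among controls, 22.1 to 181 among non-responders, 140 to 207 among stable tumours and 104 to 228 among responders, with 4 of 8 higher in responders than in non-responders (25.2% of all tested genes) and 1 of 8 in stable tumours (7.08%). For macrophage markers the sums were 553 to 976 CPM among controls, 756 to 2433 among non-responders, 2182 to 3394 among stable tumours and 983 to 3039 among responders, and 6 of 8 were lower in responders than in stable tumours (17.8% of all tested genes). Endothelial markers fell with the mitosis genes, 6 of 6 in responders (23.8% of all tested genes) and 4 of 6 in stable tumours (7.86%) against non-responders, with sums of 47.5 to 120 CPM in responders, 84.8 to 142 in stable tumours, 150 to 296 in non-responders and 142 to 205 in controls. Erythroid markers were lower in responders in 3 of 3 tested, with sums of 4.85 to 14.9 CPM in responders and 22.4 to 79.4 in non-responders. Against non-responders, responders were higher in 1 of 6 B and plasma cell markers and 2 of 5 neutrophil markers, and lower in 1 of 7 fibroblast and 2 of 5 skeletal muscle markers, with 0 of 7 keratinocyte and hair markers called. With 25.2% of all tested genes higher and 23.8% lower, these small counts are not read as changes of those cell types. None of these markers was at 0 in all tumours, and their part in the mitosis gene differences was not tested.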

How the data were processed

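RNA from 25 B2905 tumours was made into libraries with a stranded total RNA kit per the labels' protocols, although the molecule label reads polyA RNA. The authors deposited expected counts per gene, not normalized (5.64% of values have a part after the decimal point other than 0), and a table of RPKM values, for which the sources used here state neither gene lengths nor denominator. Per the submitters' processing notes, which give no roles, bcl2fastq 2.17, Trimmomatic, STAR 2.5.1, RSEM 1.2.22 and the build mm10 were used, and the strand setting of counting is not stated. The number that opens each sample's description runs by group, and the labels do not say what it stands for. If it gives a processing order, that order cannot be told apart from group.

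Expected counts were rounded. Genes were filtered with filterByExpr (18031 of 55450 kept), scaled by TMM and tested with edgeR 4.0.16 in R 4.3.3, by the robust quasi-likelihood F test with 4 group means over all 25 tumours. p-values are two-sided and Benjamini-Hochberg adjusted across the 18031 genes, with a threshold of 0.05. An SE is the size of the log2 fold change divided by the root of F, and 95% intervals use the test's degrees of freedom. Log2 CPM used a prior count of 2. Identifiers and coordinates are GENCODE M21 (GRCm38), where all 55450 identifiers were found, and promoter windows are RefSeq (GRCm38.p6). The fitting steps were run on simulated counts in which few genes changed. That run cannot speak to error rates where as many genes differ as here.

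The members, gene lists and 10 cell type marker lists were chosen with earlier results of these data known. All 36 members are reported by role. Values in each control, with the lowest, median and highest value of each other group, are given for Mki67, Cdk1, Ccnb1, Plk1, Aurkb, Birc5, Bub1b, Top2a, Kif11, Cenpa, Foxm1, Ube2c and Anln and for the highest and lowest member of each of the 7 comparisons. Of the other lists, the called gene with the largest change between responders and non-responders is named, with Mybl2, Cdkn1a and Cdkn2c. Numa1, Rb1, E2f2 and E2f4 were named after their values were seen.

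Exons of 11 members share bases with another annotated gene, on the same strand for Foxm1 and Top2a (a small nucleolar RNA) and on the opposite strand for Ccna2, Cdc20, Kif20a, Kif4, Ncapg, Nusap1, Plk1, Prc1 and Ube2c. Without the strand setting, those reads cannot be told apart. Alternatives were DESeq2 1.42.0, RLE size factors, protein-coding genes only, no low-count filter, a stricter filter (8 tumours at 1 CPM, mean count 50), only the groups compared, the protein-coding share as a covariate, a required 2-fold change, limma 3.58.1 on log2(RPKM + 1) and log2(RPKM + 0.1), leaving out libraries under 60% protein-coding, and leaving out each tumour. A fold on log2(RPKM + 1) understates the change of low genes. Between responders and stable tumours, Top2a, Kif20a and Nusap1 differed by -0.306, -0.255 and -0.364 on that scale. With 0.1 in place of 1 they differed by -0.325, -0.287 and -0.436, and on the counts by -0.457, -0.600 and -0.729. The reason for the remaining gap was not tested.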

Additional observations from a re-analysis of the deposited data

Results flagged for a closer look

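In 9 of 148 group values tested, the lowest or highest tumour stood apart from the rest of its group by Dixon's gap test, where chance gives about 1 in 20. In 6 of them the low tumour was S3. Its log2 CPM was 3.20 for Ccnb1, with the other stable tumours at 4.34 to 4.81, and 2.74 for Cdc20, with the others at 3.67 to 4.08. It was 2.73 for Dlgap5 (others 3.49 to 3.95), 2.69 for Nuf2 (others 3.59 to 4.13), 4.18 for Prc1 (others 5.29 to 5.85) and 0.78 for Ttk (others 2.13 to 2.67). These genes vary together across tumours, so the 6 values are not independent. S3 also had the lowest melanocytic sum of all tumours, 228 CPM, and the highest macrophage sum, 3394 CPM.

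Among responders, R1 had the lowest log2 CPM for Ccnb2, 1.35, with the others at 2.44 to 3.40, and for Dlgap5, 2.56, with the others at 3.20 to 3.70. R1 is the library with 23.8% of its counts in protein-coding genes. R3 had the highest Ube2c, 4.08, with the others at 2.73 to 3.21.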

How the results depend on the processing

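No called member changed direction under the alternatives run. Espl1 against non-responders and stable tumours, and Nuf2 and Mki67 between non-responders and controls, kept their direction too. Other members that were not called were not followed, and genes outside the 36 were not run. By mean RPKM, Plk1 was 4.49 in responders and 4.09 in stable tumours, and Mki67 12.8 and 12.6. For the same groups Bub1b was 7.10 and 6.87, Cenpf 4.162 and 3.805, Ect2 3.12 and 2.88, and Ndc80 2.23 and 2.18. All of these are the reverse of their order by mean CPM. Birc5 and Dlgap5 also reversed, by a narrow margin in RPKM, and the other members kept their order. Apart from a required 2-fold change and from leaving out single tumours, responders had 29 to 35 members called lower against non-responders and 35 to 36 against controls, and stable tumours 34 to 36 and 36. Requiring a change of at least 2-fold left 6 members called between responders and non-responders, 0 between responders and stable tumours, 0 between stable tumours and non-responders, 25 between responders and controls, 14 between stable tumours and controls, 0 between non-responders and controls and 5 between all anti-CTLA-4 tumours and controls. Between responders and stable tumours the count was 1 with protein-coding genes only, with no low-count filter or with only the groups compared, and 0 with the share as a covariate, without libraries under 60% or with limma on log2(RPKM + 1) or log2(RPKM + 0.1). Leaving out each tumour in turn gave 0 to 11 there (11 without S3, 10 without R3, 6 without N3 or R5, 0 without S5), 0 to 6 between non-responders and controls (6 without N3, 1 without N2), 33 to 36 between stable tumours and non-responders, and 35 between responders and non-responders each time. The mean over the members differed by -1.30 between responders and controls on log2(RPKM + 1), against -1.68 on log2 CPM. With no low-count filter the median of all genes shifted by -0.19 between responders and controls and by -0.14 between stable tumours and controls, and with the stricter filter by 0.14 between responders and controls. No paired analysis was possible because replicate numbers follow the order of the records and pair no tumours. The smallest count behind a member's value was 11, for Ccnb2 in R1.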
